A study of Mus musculus with 4 samples.

Results

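A set of 9 complement genes was followed in mouse bone marrow-derived macrophages, chosen by symbol from the 23259 genes that have a value in the 4 libraries: C1qa, C1qb, C1qc, C3, Cfb, Cfp, Serping1, C3ar1 and C5ar1. All 9 were found. The cells came from C57BL/6 mice of 7 weeks and had been given IL-4, a cytokine of alternative macrophage activation, for 24 h. There were 2 libraries labelled Sema6D-/-, homozygous for a disrupted gene of Sema6D, a transmembrane semaphorin, and 2 labelled wild type, and all 4 had IL-4. How the allele was made is not given in the labels, nor whether the libraries that share a label came from different animals or cultures. Every p-value therefore rests on the scatter among these 4 libraries alone, part or all of which may be technical.

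Complement is a cascade of secreted proteins that marks particles for uptake and recruits leukocytes. In the classical pathway C1q, a hexamer built from A, B and C chains, binds immune complexes or dying cells, and the C1 inhibitor encoded by Serping1 restrains the proteases attached to it. In the alternative pathway factor B (Cfb) combines with cleaved C3 to form a convertase that properdin (Cfp) stabilises. C3 is where the pathways meet, and its fragment C3a and the C5 fragment C5a act on the receptors encoded by C3ar1 and C5ar1. Macrophages are the main source of C1q in the body, whereas most circulating C3 comes from the liver.

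The genotype labels could not be checked from Sema6d, which was listed at 0.106 and 0.315 FPKM in the libraries labelled Sema6D-/- and at 0.166 and 0.389 FPKM in the libraries labelled wild type. FPKM are fragments scaled by transcript length and library size. Titles of the libraries labelled Sema6D-/- begin with W and those of the libraries labelled wild type with K, so every direction given here is that of the label and would turn round if labels had been exchanged. The depth read from the smallest steps of the values was about 8300000 fragments for each library labelled Sema6D-/- and 8900000 for each labelled wild type. Macrophage markers were abundant: 8 of 8 were tested, with 1 higher (Adgre1) and 3 lower (Itgam, Lyz2 and Cd14), and their FPKM summed to 5269 and 5302 in the libraries labelled Sema6D-/- and to 5888 and 5599 in those labelled wild type. Neutrophil markers, 11 of 12 found, summed to 779.6 and 640.2 FPKM in the libraries labelled Sema6D-/-. Their sums were 229 and 220.4 FPKM in the libraries labelled wild type. Of the 10 tested, 6 were higher, where 4.80% of all genes tested were higher and 4.91% lower. Most of each sum was S100a8 and S100a9. Mmp8 was not higher (24.3 and 25.2 FPKM under Sema6D-/-, 24.1 and 27.8 FPKM under wild type). Mpo, 1 of the 6, reached the mean of 1 FPKM needed for the test only through the libraries labelled Sema6D-/- (0.916 FPKM under wild type). So did Elane and Retnlg, which were not called (0.421 and 0.497 FPKM under wild type). The count over the 10 is thus not free of the comparison. Fibroblast markers were low, with sums of 8.10 and 5.27 FPKM in the libraries labelled Sema6D-/- and 5.79 and 11.2 FPKM in the libraries labelled wild type. Markers of mast cells, basophils and eosinophils summed to 12.4 and 6.68 FPKM under Sema6D-/- and to 1.68 and 1.49 FPKM under wild type. The 2 tested, Mcpt8 and Prg2, were higher, but their wild type means (0.238 and 0.947 FPKM) were under 1 FPKM. They were tested only through the libraries labelled Sema6D-/-, so this count is not free of the comparison. Dendritic cell markers summed to 306 and 322 FPKM under Sema6D-/- and to 404 and 409.5 FPKM under wild type, nearly all of it Itgax, which macrophages also express; 6 of the 8 stayed under 1 FPKM. B cell and T or NK cell markers summed to at most 0.770 FPKM in any library.

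RefSeq start regions, 250 bases before to 50 bases after the annotated start in GRCm38.p6 (the assembly that mm10 names), are shown for the gene that differed most, for the adjacent genes C1qb and C1qc, and for C5ar1, the receptor gene with the larger difference. They are C3 at chr17:57228087-57228386, C1qb at chr4:136886151-136886450, C1qc at chr4:136892865-136893164 and C5ar1 at chr7:16259289-16259588, all on the minus strand and written 5′ to 3′. Capitals mark the C/EBP letters TTNNGNAA, the PU.1 core AGGAAG and the TATA box TATAAA on either strand, where neighbouring matches can run into each other.
C3: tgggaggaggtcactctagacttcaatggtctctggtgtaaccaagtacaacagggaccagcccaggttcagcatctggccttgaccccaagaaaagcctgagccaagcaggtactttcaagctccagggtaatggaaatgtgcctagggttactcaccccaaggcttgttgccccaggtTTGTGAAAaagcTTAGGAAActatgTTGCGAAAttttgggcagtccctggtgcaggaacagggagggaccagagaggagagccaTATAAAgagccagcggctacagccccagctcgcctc
C1qb: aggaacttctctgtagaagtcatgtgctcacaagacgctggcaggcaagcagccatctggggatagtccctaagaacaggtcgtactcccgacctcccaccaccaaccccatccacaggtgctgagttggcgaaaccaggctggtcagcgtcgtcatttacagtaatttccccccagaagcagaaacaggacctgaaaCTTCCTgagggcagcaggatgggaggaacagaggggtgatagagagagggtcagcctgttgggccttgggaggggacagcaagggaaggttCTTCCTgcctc
C1qc: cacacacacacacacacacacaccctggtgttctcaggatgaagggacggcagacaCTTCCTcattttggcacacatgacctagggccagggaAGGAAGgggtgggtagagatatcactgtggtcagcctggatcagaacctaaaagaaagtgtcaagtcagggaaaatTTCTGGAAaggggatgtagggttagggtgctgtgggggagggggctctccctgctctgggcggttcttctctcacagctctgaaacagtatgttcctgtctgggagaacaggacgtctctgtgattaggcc
C5ar1: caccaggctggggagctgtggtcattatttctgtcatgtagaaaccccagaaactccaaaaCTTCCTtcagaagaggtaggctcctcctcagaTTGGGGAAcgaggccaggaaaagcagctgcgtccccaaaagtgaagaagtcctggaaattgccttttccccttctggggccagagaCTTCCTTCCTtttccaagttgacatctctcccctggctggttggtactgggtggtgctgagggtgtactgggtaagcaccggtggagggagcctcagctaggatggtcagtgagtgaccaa

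The C3 region held 3 stretches with the C/EBP letters, which began at -70, -58 and -45 counted from the annotated start, and TATAAA from base 15 after it. C1qb had AGGAAG on the opposite strand at -52 and again from base 40 after the start. C1qc had AGGAAG on the opposite strand at -194 and on the same strand at -157, and the C/EBP letters at -81. C5ar1 had 3 copies of AGGAAG on the opposite strand, at -189, -71 and -67, the last pair overlapping, and the C/EBP letters at -157. The annotated spans of C5ar1 (to base 16259540) and C1qc (to base 136892936) reach upstream of the start used here. The C5ar1 matches lie inside that span. Both strands were searched, and these letters are common: 40.7% of 32544 RefSeq start regions of the same length held TTNNGNAA, 35.1% AGGAAG and 13.6% TATAAA. The interferon-response letters (GAAA, any 2 bases, GAAA; 3.45% of all regions) and the STAT letters (TTC, any 3 or any 4 bases, GAA; 8.33% and 6.98%) were in none of the 6 regions available, which were those of C1qb, C1qc, C3, C3ar1, C5ar1 and Cfp. TTNNGNAA was in 3 of the 6 (C1qc, C3 and C5ar1), AGGAAG in 4 and TATAAA in 2. The Maf half-site TGCTGA was in 4 of the 6, among them C1qb and C3, against 19.5% of all regions. The NF-kB letters (GGGA, any 4 bases, CC) were in 3, C1qb, C1qc and C3, against 20.8%.

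C3 and Cfb, which supply the alternative pathway convertase, were lower in the libraries labelled Sema6D-/-, C1qa was lower by less, and the receptor genes C3ar1 and C5ar1 were higher. Of the 9, 3 were lower and 2 higher by limma at an adjusted p under 0.05, where 9.72% of the 10115 genes tested passed, 4.91% lower and 4.80% higher. The libraries of the labels did not overlap for 8 of the 9, Cfp being the exception, against 56.2% of all genes tested (28.8% higher and 27.4% lower). All 9 had a mean of at least 1 FPKM and were tested, but Serping1 reached that mean only through the libraries labelled wild type, so its place among the 9 tested is not free of the comparison.

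**Figure D1:**
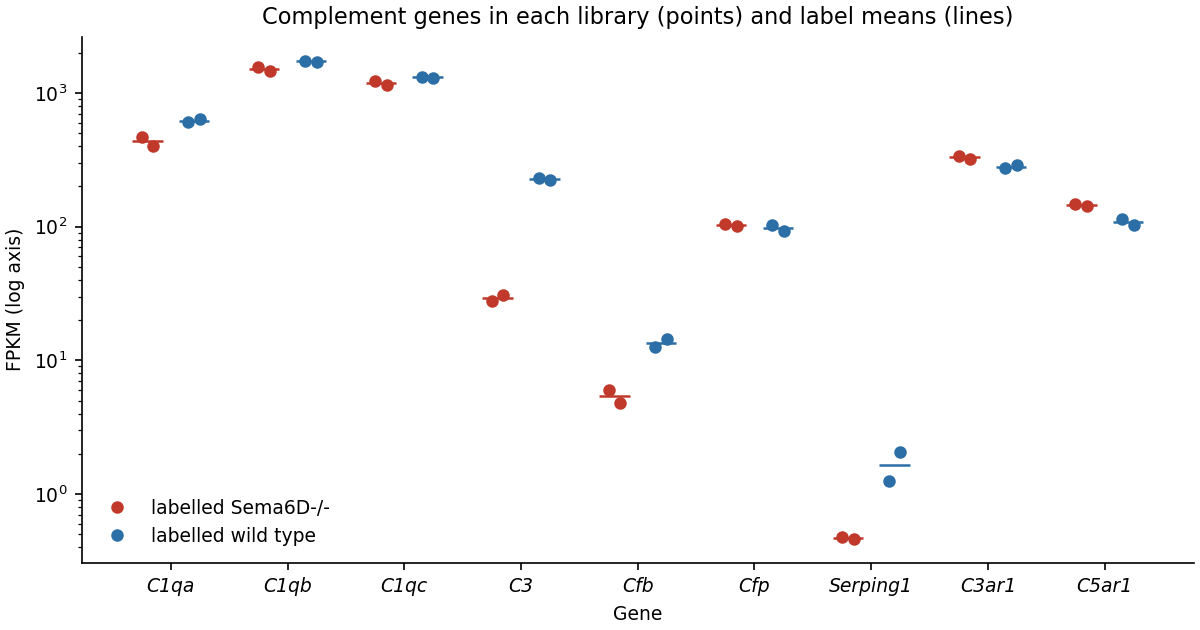
FPKM of each complement gene (log axis) in the 2 libraries labelled Sema6D-/- (red) and the 2 labelled wild type (blue); points are libraries and lines label means. C3 sits near 29.4 FPKM under Sema6D-/- and near 228 FPKM under wild type, while the C1q chains stay at or above 403 FPKM in all 4 libraries.

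C3 differed most. It was at 27.7 and 31.1 FPKM in the libraries labelled Sema6D-/- and at 233 and 222 FPKM in the libraries labelled wild type. The library pairs were far apart and each pair was tight, and the mean was 7.75-fold lower under the label Sema6D-/-. The difference of -2.91 ± 0.07 (SE) in log2(FPKM + 1), with a 95% interval from -3.08 to -2.74, passed the test (adjusted p = 9.24e-05) and was the 12th lowest of the 10115. By level, C3 ranked 2838 and 2563 among all genes in the libraries labelled Sema6D-/- and 290 and 305 in those labelled wild type. In these bulk samples, fewer cells that transcribe C3 and less C3 RNA per cell cannot be told apart. Fibroblasts, another cell type that makes C3, had low marker sums that overlapped between labels (5.27 to 8.10 FPKM under Sema6D-/- and 5.79 to 11.2 FPKM under wild type), and the part of other cells in the C3 difference was not tested.

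Cfb, the serine protease of the alternative convertase, was at 5.98 and 4.81 FPKM in the libraries labelled Sema6D-/- and at 12.6 and 14.4 FPKM in the libraries labelled wild type. The labels did not overlap, the mean was 2.50-fold lower under Sema6D-/-, and the difference of -1.18 ± 0.12 (SE) passed (adjusted p = 0.00674). Cfb lies 87 bases from C2, the classical pathway protease it resembles, on chromosome 17, and the annotated gene Gm20547 has exons that overlap those of both in GENCODE M21, so the level of Cfb is uncertain to that extent. Without the filter on low values its call was lost (adjusted p = 0.179). C2 itself was listed at 0.181 and 0 FPKM under Sema6D-/- and at 0.248 and 0.081 FPKM under wild type.

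Cfp, which encodes properdin, did not follow C3 and Cfb. It stood at 105 and 102 FPKM in the libraries labelled Sema6D-/- and at 103 and 92.6 FPKM in the libraries labelled wild type, and these ranges overlapped. The difference of 0.08 ± 0.06 (SE) did not pass (adjusted p = 0.465), and its 95% interval ran from -0.07 to 0.24. Within a library, Cfp was 17.6 and 21.2 times the level of Cfb under Sema6D-/- and 8.19 and 6.41 times under wild type. Neutrophils also make properdin, and 6 of their 10 tested markers were higher under Sema6D-/-, where 4.80% of all genes tested were. Of the 10, Mpo, Elane and Retnlg were tested only through the libraries labelled Sema6D-/-. The part of neutrophils in the Cfp values was not tested. Cfd, the protease that cuts factor B, was listed at 0 in all 4 libraries.

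Serping1, the C1 inhibitor gene, was the lowest of the 9. It was at 0.478 and 0.461 FPKM in the libraries labelled Sema6D-/- and at 1.25 and 2.07 FPKM in the libraries labelled wild type, which by the depth estimate is at most about 9 and 9 fragments under Sema6D-/- and 26 and 43 under wild type. The labels did not overlap, but the libraries labelled wild type differed from each other, and the difference of -0.84 ± 0.19 (SE) did not pass (adjusted p = 0.0588). Its adjusted p was 0.0398 without wild type replicate 1, which leaves only the library at 2.07 FPKM under that label, and 0.0352 with robust variance estimation. Since Serping1 entered the test only through the libraries labelled wild type, none of these values is support for a difference.

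Among the 9 genes the C1q chains had the highest levels, and their differences were small beside that of C3. C1qb ranked 41 and 40 among all genes in the libraries labelled Sema6D-/- and 33 and 35 in those labelled wild type. C1qa was at 470.3 and 403 FPKM in the libraries labelled Sema6D-/- and at 605 and 641 FPKM in the libraries labelled wild type. It was 1.43-fold lower under Sema6D-/- with no overlap, and its difference of -0.52 ± 0.08 (SE) passed (adjusted p = 0.0226). The other chains differed by less. C1qb was at 1568 and 1467 FPKM under Sema6D-/- and at 1749 and 1704 FPKM under wild type, a difference of -0.19 ± 0.05 (SE) that did not pass (adjusted p = 0.104). C1qc was at 1226 and 1159 FPKM under Sema6D-/- and at 1319 and 1303 FPKM under wild type, a difference of -0.14 ± 0.05 (SE) that did not pass (adjusted p = 0.17). Each chain thus lay lower in both libraries labelled Sema6D-/-, and the intervals of C1qb (-0.32 to -0.05) and C1qc (-0.26 to -0.01) bound the size. After quantile normalization both passed as well (adjusted p = 0.0289 for C1qb and 0.0413 for C1qc).

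The C1q protein holds its chains in equal numbers, and their transcripts were not at equal levels. C1qa made up 14.4% and 13.3% of the summed C1q FPKM in the libraries labelled Sema6D-/- and 16.5% and 17.6% in those labelled wild type. C1qb took 48.0% and 48.4% under Sema6D-/- and 47.6% and 46.7% under wild type. C1qc took 37.6% and 38.3% under Sema6D-/- and 35.9% and 35.7% under wild type. No chain's share overlapped between the labels: that of C1qa was lower and those of C1qb and C1qc higher under Sema6D-/-. The shares are parts of one sum, so a lower share of C1qa has to raise that of the other chains together. In FPKM, C1qb and C1qc were themselves lower under Sema6D-/-. C1qb over C1qc was 1.28 and 1.27 under Sema6D-/- and 1.33 and 1.31 under wild type. These shares are values with no test.

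C1q, of the classical pathway, and Cfb, of the alternative pathway, were each set against C3, the component that both use, within a library. The mean of the C1q chains was 39.3 and 32.5 times C3 in the libraries labelled Sema6D-/- and 5.25 and 5.47 times C3 in those labelled wild type. C3 over Cfb was 4.63 and 6.46 under Sema6D-/- and 18.6 and 15.4 under wild type. Neither ratio overlapped between the labels, and they were not tested. Both hold C3, which differed most of the 9 genes, so neither ratio is a result separate from that of C3. In the summed FPKM of the 9 genes, C3 made up 0.711% and 0.855% under Sema6D-/- and 5.29% and 5.08% under wild type. C1q held 83.2% to 83.9% of that sum in all 4 libraries, but its level was not even. The C1q sum was 3265 and 3029 FPKM under Sema6D-/- and 3672 and 3648 FPKM under wild type. The sum of the 9 was 3892 and 3633 FPKM under Sema6D-/- and 4413 and 4370 FPKM under wild type.

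**Figure D2:**
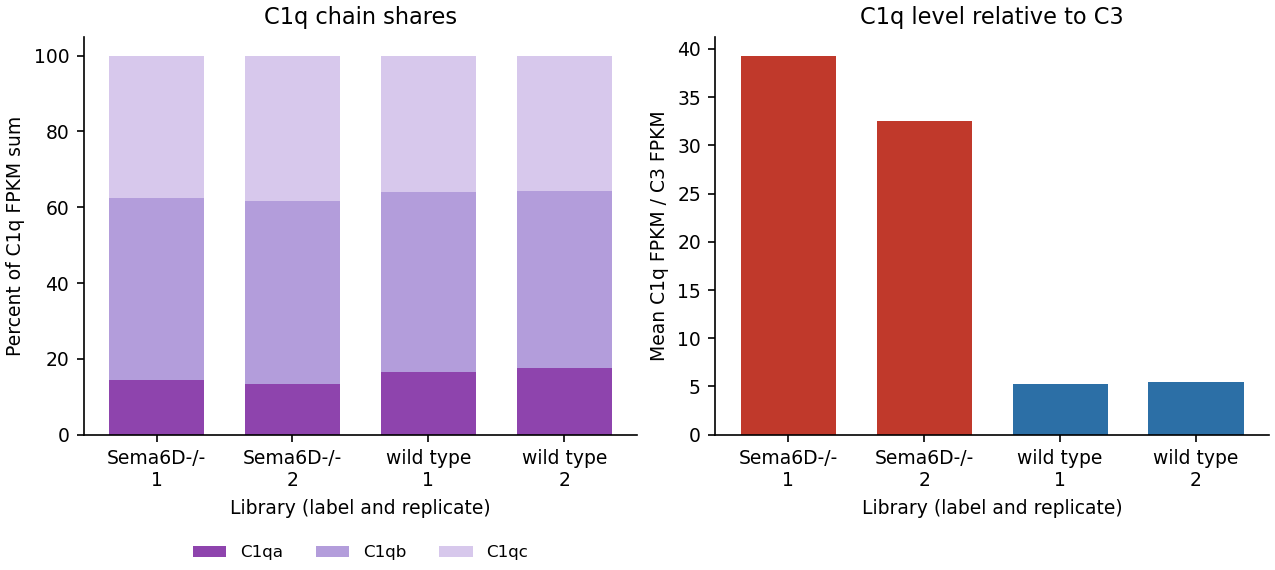
Left, percent of the summed C1q FPKM that each chain takes in each library; right, mean FPKM of the C1q chains over that of C3. C1qa takes 14.4% and 13.3% under Sema6D-/- and 16.5% and 17.6% under wild type, and the ratio to C3 is 39.3 and 32.5 under Sema6D-/- and 5.25 and 5.47 under wild type.

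Anaphylatoxin receptor genes were higher in the libraries labelled Sema6D-/-. C5ar1, whose product binds C5a, was at 149 and 142 FPKM under Sema6D-/- and at 114 and 104 FPKM under wild type. It was 1.34-fold higher without overlap, and the difference of 0.42 ± 0.06 (SE) passed (adjusted p = 0.0186). C3ar1, the C3a receptor gene, was at 339.7 and 323 FPKM under Sema6D-/- and at 277 and 287 FPKM under wild type, 1.17-fold higher, with a difference of 0.23 ± 0.05 (SE) that passed (adjusted p = 0.0435). The second C5a receptor gene C5ar2, listed as Gpr77 and placed 2588 bases from C5ar1 on chromosome 7, was at 10.1 and 9.19 FPKM under Sema6D-/- and at 5.63 and 7.45 FPKM under wild type; its difference of 0.51 ± 0.13 (SE) did not pass (adjusted p = 0.0806), but did without wild type replicate 2 (0.0426). Neutrophils carry these receptors too, and S100a8 stood at 295 and 232 FPKM under Sema6D-/- and at 72.2 and 79.1 FPKM under wild type; mast cells, basophils and eosinophils carry them as well, and their markers summed to 12.4 and 6.68 FPKM under Sema6D-/- and to 1.68 and 1.49 FPKM under wild type. The part of these cells in the receptor differences was not tested.

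Each library was also left out in turn. Such a fit has 1 library under a label, takes the spread from the 2 of the other label and from the trend over all genes, and assumes that the lone library varies like them, so it is a weak check. C3 and Cfb passed in all 4 such fits (highest adjusted p = 0.00177 and 0.0454). C1qa lost its call without Sema6D-/- replicate 2 (adjusted p = 0.0865), wild type replicate 1 (0.0526) or wild type replicate 2 (0.076), C5ar1 without Sema6D-/- replicate 1 (0.146) or 2 (0.10), and C3ar1 without any 1 of the 4 (0.0821 to 0.233). With the number in the sample title as a block, C3ar1 did not pass either (adjusted p = 0.101).

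**Figure D3:**
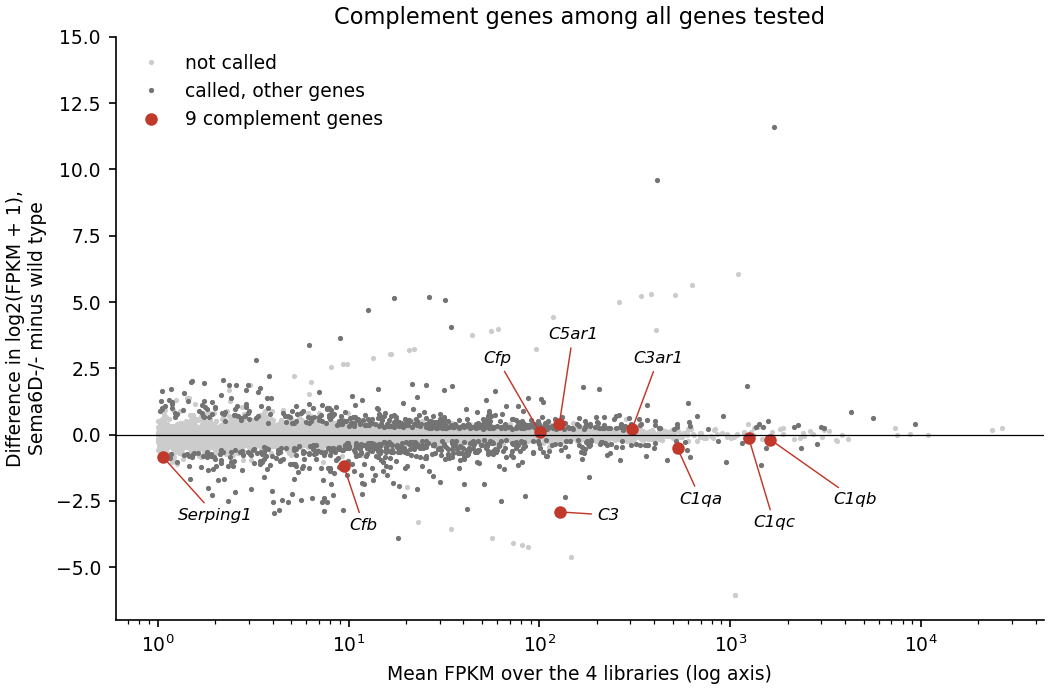
Difference in log2(FPKM + 1), Sema6D-/- minus wild type, against the mean FPKM over 4 libraries (log axis) for the 10115 genes tested; dark grey points are called, red points are the 9 complement genes. C3 lies at -2.91, the 12th lowest difference, and the C1q chains lie between -0.52 and -0.14.

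By level, the order of the 9 genes was C1qb, C1qc, C1qa and C3ar1 at the top and Cfb and Serping1 at the bottom under both labels. C3 changed places: it lay below Cfp under Sema6D-/- (29.4 ± 2.4 against 104 ± 2.1 FPKM, SD, n = 2) and above C5ar1 under wild type (228 ± 7.9 against 109 ± 7.7 FPKM). C5ar1 and Cfp were neighbours whose values nearly met under wild type, where the lower C5ar1 value was 104 FPKM and the higher Cfp value 103 FPKM.

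Of the pathway's other genes, 38 of 38 were found and 12 had a mean of at least 1 FPKM. Among these 12, 2 were higher and 2 lower, where 4.80% and 4.91% of all genes tested were. The median difference of the 12 was -0.11 against 0.0029 over all genes tested. C8g (mean 0.653 FPKM under Sema6D-/- and 1.38 FPKM under wild type) was tested only through the libraries labelled wild type, so this median is not free of the comparison. Most of the cascade was scarce or not detectable at this depth: 26 of the 38 stayed under 1 FPKM in all 4 libraries, and 13 were listed at 0 in all 4. Among terminal pathway genes, Hc, which encodes C5, reached 0.019 FPKM in 1 library, and C6, C7, C8a, C8b and C9 were listed at 0. C4a and C4b, near-identical copies of the classical pathway gene C4, stayed at or under 0.095 FPKM. C1ra, a protease of the C1 complex, was at 2.45 and 2.16 FPKM under Sema6D-/- and at 2.72 and 2.50 FPKM under wild type (adjusted p = 0.563).

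Itgam and Itgax, whose products bind C3 fragments, were lower, and Cd93 was higher. Itgam, the alpha chain of complement receptor 3, was at 209 and 215 FPKM in the libraries labelled Sema6D-/- and at 306 and 282 FPKM in the libraries labelled wild type (difference -0.47 ± 0.06 (SE), adjusted p = 0.00963). Itgax, the alpha chain of complement receptor 4 and also a dendritic cell marker, was at 304 and 319.9 FPKM under Sema6D-/- and at 402 and 407 FPKM under wild type (-0.37 ± 0.05, adjusted p = 0.011). Their shared beta chain gene Itgb2 was at 983 and 1045 FPKM under Sema6D-/- and at 1111 and 1049 FPKM under wild type and did not pass (adjusted p = 0.385). Both Itgam and Itgax lost their calls without either Sema6D-/- library (highest adjusted p = 0.0981 and 0.0974). Cd93, first described as a C1q receptor and now known for roles in apoptotic cell uptake and adhesion, was at 74.0 and 72.3 FPKM under Sema6D-/- and at 44.1 and 43.1 FPKM under wild type. It was 1.68-fold higher (0.73 ± 0.05, adjusted p = 0.00194), and it also passed in the 4 fits that left out a library, with the limit given for those fits. Calr and C1qbp, which encode C1q-binding proteins, did not pass (adjusted p = 0.55 and 0.315).

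Among regulators on the cell surface, Cd59a, which blocks assembly of the membrane attack complex, was at 4.31 and 4.09 FPKM under Sema6D-/- and at 1.90 and 1.73 FPKM under wild type. It was 2.31-fold higher (0.89 ± 0.11, adjusted p = 0.0106), a call lost without Sema6D-/- replicate 1 (0.0898) or 2 (0.0681). Cd59a has a near copy, Cd59b, so its level is uncertain. Cr1l, the rodent regulator that limits C3 activation on cells, was at 31.8 and 32.7 FPKM under Sema6D-/- and at 28.7 and 28.1 FPKM under wild type and did not pass (adjusted p = 0.101). The lectin pathway gene Fcna and the terminal gene C8g did not pass (adjusted p = 0.314 and 0.13).

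**Figure D4:**
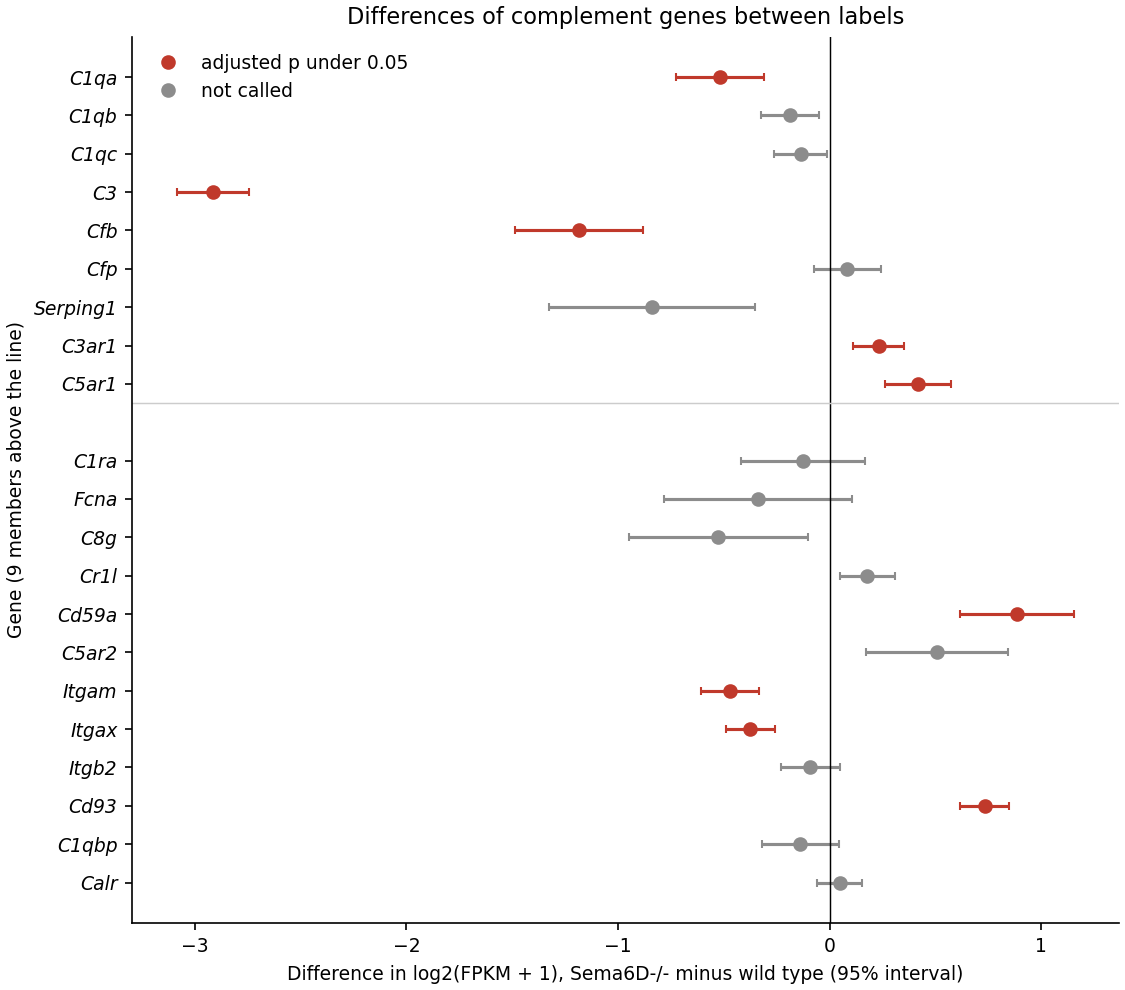
Difference in log2(FPKM + 1), Sema6D-/- minus wild type, with its 95% interval for the 9 complement genes (above the line) and the 12 other complement genes tested; red marks an adjusted p under 0.05. C3 at -2.91 and Cfb at -1.18 lie farthest left, and Cd59a at 0.89 and Cd93 at 0.73 farthest right.

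Transcription factors known to act on complement genes were read in the same libraries. Of 12, 11 were tested, 1 was higher and 3 were lower, where 4.80% and 4.91% of all genes tested were. The interferon signalling genes Stat2, Irf7 and Irf9 were lower: Stat2 was at 22.4 and 29.3 FPKM under Sema6D-/- and at 50.6 and 51.7 FPKM under wild type, and Irf7 at 77.5 and 102 FPKM under Sema6D-/- and at 278 and 270.2 FPKM under wild type (adjusted p = 0.00327). Stat2 had a difference of -0.97 (adjusted p = 0.0119) and Irf9 of -0.42 (adjusted p = 0.0494). Irf9 lost its call without Sema6D-/- replicate 1 (0.145), wild type replicate 1 (0.135) or wild type replicate 2 (0.131). Irf1 was higher, at 96.9 and 92.9 FPKM under Sema6D-/- and at 79.7 and 76.4 FPKM under wild type (adjusted p = 0.0284), a call lost without any 1 of the 4 libraries (0.0564 to 0.179). Spi1, listed as Sfpi1 and encoding PU.1, and Cebpb, encoding a C/EBP factor, did not pass (adjusted p = 0.631 and 0.118). The C/EBP letters were in the regions of C3, C1qc and C5ar1. Without wild type replicate 1 the difference of Cebpb was -0.49, against -0.34 with all 4 libraries. Whether any of these factors had a part in the complement differences was not tested.

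Neighbouring genes were read as well, where 9.72% of all genes tested were called. The C1q genes span 18719 bases of chromosome 4, from 136880126 to 136898844, in the order C1qb, C1qc and C1qa. Of the 10 nearest tested genes around them, 1 was higher, the zinc finger gene Zfp46 (0.81 ± 0.11, adjusted p = 0.0131), and 9 were not called. Around Cfb, on chromosome 17 from 34856374 to 34862514, 1 of 10 was lower, 1110038B12Rik (-0.21, adjusted p = 0.0478), and the 10 differences ran from -0.21 to 0.04. Around C3, on chromosome 17 from 57203967 to 57228136, Trip10 was lower (-0.34, adjusted p = 0.0352) and Emr1, now Adgre1 and the gene of the macrophage antigen F4/80, was higher (0.50 ± 0.05, adjusted p = 0.0056). The 10 ran from -0.53 to 0.50, all nearer to 0 than C3 at -2.91. Calls of 1 in 10 around C1q and around Cfb were near the share over all genes tested. Around C3, 1 of 10 was higher and 1 lower, where 4.80% and 4.91% of all genes tested were. These calls rest on few libraries: 1110038B12Rik and Trip10 lost theirs without any 1 of the 4 (0.0975 to 0.217 and 0.0887 to 0.192), Zfp46 without Sema6D-/- replicate 1 (0.0816) or 2 (0.086), and Emr1 without Sema6D-/- replicate 1 (0.0646).

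**Figure D5:**
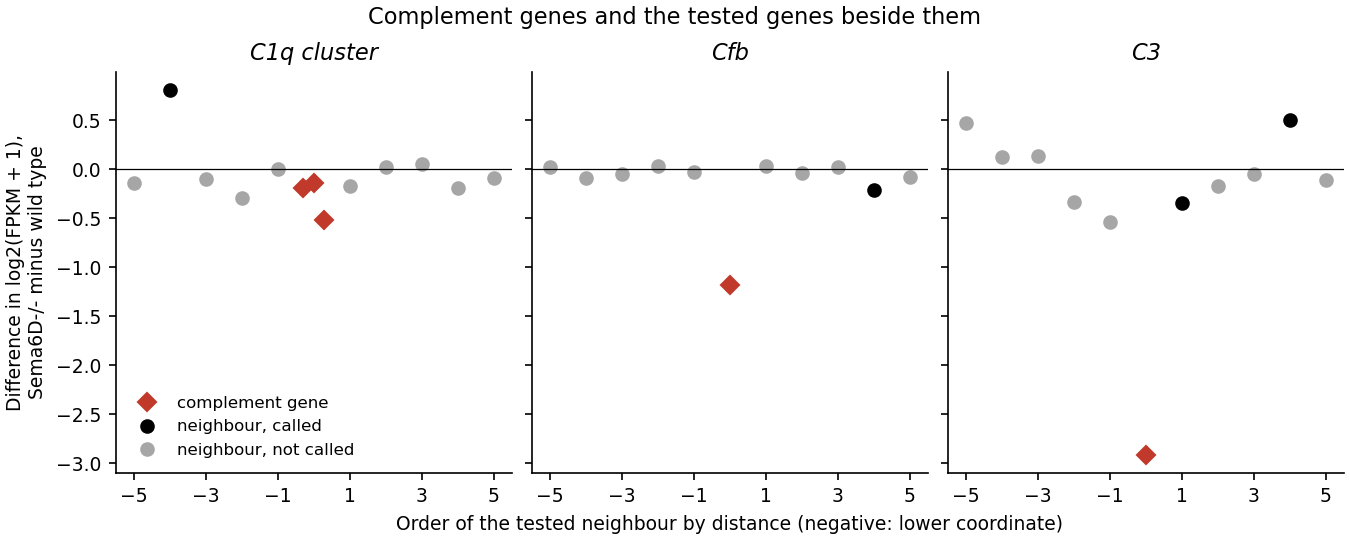
Difference in log2(FPKM + 1), Sema6D-/- minus wild type, of complement genes (red diamonds) and of the 5 nearest tested genes on each side in order of distance (circles, black where called). Cfb at -1.18 and C3 at -2.91 stand below their neighbours, which run from -0.21 to 0.04 and from -0.53 to 0.50.

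Likeness of profile was measured as the Euclidean distance between centred log2(FPKM + 1) values over the 4 libraries. The genes nearest to C3 were Irg1 at a distance of 0.04, Ly6i at 0.15 and Xaf1 at 0.18. Irg1 and Ly6i were low under Sema6D-/-, so their closeness rests on the 1 FPKM added before the logarithm. Their means were 13.7-fold and 26.0-fold lower under Sema6D-/-, against 7.75-fold for C3. With 0.1 FPKM added instead, the differences were -3.66 for Irg1, -4.43 for Ly6i and -2.95 for C3. Irg1 was at 0.878 and 1.16 FPKM under Sema6D-/- and at 14.3 and 13.6 FPKM under wild type, and Xaf1 at 9.11 and 10.6 FPKM under Sema6D-/- and at 70.9 and 76.6 FPKM under wild type. Ly6i was at 0.164 and 0.475 FPKM under Sema6D-/- and at 8.56 and 8.07 FPKM under wild type, and was tested only through the libraries labelled wild type. It belongs to a family of similar copies, so its level is uncertain. The genes nearest to C1qa were Fam113a, Cdk10 and 1600014C10Rik, at distances of 0.04, 0.06 and 0.08.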

How the data were processed

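Total RNA of 4 macrophage samples was extracted using a miRNA kit and sequenced as stranded libraries, as the labels' protocols state. The files hold FPKM, scaled for transcript length and library size, which the authors made with Cuffnorm 2.2.1 after TopHat2 2.0.13, Bowtie2 2.2.3 and SAMtools 0.1.19 on mm10, per the submitters' processing notes. Sources used here do not name the annotation, the strand setting or how shared reads were treated. Each file held 23284 symbols, of which 25 had no value. A listed 0 may be an estimate that failed.

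Groups follow the genotype label. Differences (Sema6D-/- minus wild type) were fitted by limma 3.58.1 (R 4.3.3) on log2(FPKM + 1), with an intensity trend, two-sided, for the 10115 genes whose mean reached 1 FPKM, with Benjamini-Hochberg adjustment over all of them. "Called", "passed", "higher" and "lower" refer to an adjusted p under 0.05. This scale understates the change of low genes. Folds are ratios of mean FPKM. The test was checked on simulated data. Alternatives changed the pseudocount, filter, scaling, variance estimation and pairing, and left out each library in turn. Depth was estimated from the smallest steps of low values and GENCODE M21 exon lengths, which is approximate. Positions are RefSeq's for GRCm38.p6.

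Genes named are the 9 members, the other complement genes that were tested, a fixed set of transcription factors, called neighbours of C1q, Cfb and C3, and the 3 genes nearest in profile to C3 and to C1qa. Genes named that were not tested, and single markers given as examples, were chosen after their values were seen. Members and lists were chosen with earlier results of these data known. A further symbol of the selection, and some genes of these lists, are not reported here and enter no list's counts.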

Additional observations from a re-analysis of the deposited data

How the results depend on the processing

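The differences of the 9 complement genes kept their sign in every alternative that gave them a value; Serping1 has none with a mean of at least 5 FPKM. C3 passed in each of the 13, with differences from -2.99 to -2.76. Without a filter on low values, 115 genes were higher and 99 lower in all, and 0 complement genes were higher (2 at an unadjusted p under 0.05 in limma) and 1 lower, with 1 other complement gene higher and 0 lower (3 lower at an unadjusted p under 0.05). C3 was the 1 of the 9 that kept its call without the filter. C1qa, Cfb, C3ar1 and C5ar1 lost theirs (limma adjusted p = 0.294, 0.179, 0.251 and 0.236). Without a variance trend, 261 genes were higher and 327 lower. Of the 9, 0 were higher (2 unadjusted) and 2 lower (5 unadjusted), C1qa having lost its call (adjusted p = 0.064). After quantile normalization 1 of the 9 was higher and 5 were lower. With a mean of at least 5 FPKM, 1 other complement gene was higher; Cd59a is under that mean. With the title number as a replicate block, 300 genes were higher and 337 lower, and 1 of the 9 was higher and 3 lower; same-numbered libraries did not deviate together (Pearson's r = -0.018 over genes), so the numbers were not taken as pairs. Leaving out 1 library gave 72 to 276 genes higher and 87 to 290 lower, 0 to 1 of the 9 higher (at least 2 unadjusted) and 2 to 3 lower, and 1 to 3 other complement genes higher and 0 to 2 lower (at least 2 unadjusted). Genes with small differences changed sign: Calr (-0.042) and Stat6 (-0.0082) after quantile normalization, and, when 1 library was left out, Cebpd (-0.24 to 0.044) and Rela (-0.028 to 0.096). Where no step of the alternative shows it, the cause was not tested. Genes near 1 FPKM, such as Serping1 and C8g, rest on few fragments.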
